A study of Mus musculus with 6 samples.

Results

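The carboxylesterase family was followed in livers of p62+/+ and p62S351E/+ mice. Members were the 10 gene symbols Ces1b, Ces1c, Ces1d, Ces1e, Ces1f, Ces1g, Ces2a, Ces2e, Ces3a and Ces3b, taken by name from the 24411 symbols of the count table. All 10 had counts, and all 10 passed the filter on low counts that left 5945 genes for testing. Livers came from 3 p62+/+ and 3 p62S351E/+ mice at postnatal day 19, and ribosomal RNA was removed before single-end sequencing of 75 bases. p62S351E/+ mice are heterozygous for a phosphomimetic allele of Sqstm1, the gene encoding p62, in which Glu takes the place of Ser351. The allele was made by prime editing in RENKA4 cells, an embryonic stem cell line derived from C57BL/6N, and passed through the sperm of a single male chimera by in vitro fertilization. The phosphomimetic residue is present in every tissue of these mice from conception, not in the liver alone, and no other allele or treatment was named for either genotype. No litter, sex or sequencing batch was given for the mice. At younger ages, the study reported growth retardation, mild hepatomegaly and serum signs of malnutrition and dehydration in p62S351E/+ mice. The part of these in the results below was not tested.

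Carboxylesterases are enzymes, mostly of the endoplasmic reticulum, that cleave ester, amide and thioester bonds by means of an active-site serine. In hepatocytes they hydrolyse drugs and other foreign compounds as well as stored neutral lipid, so that they take part both in detoxification and in the supply of lipid for lipoprotein secretion. Mice carry many more of these genes than humans do, because the family grew by repeated tandem duplication, and the paralogs lie side by side on chromosome 8.

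The members fall into 3 subfamilies along chromosome 8 (positions in GRCm38, the build also called mm10, from GENCODE release M21). The 6 Ces1 genes lie between 93056728, the end of Ces1b, and 93337308, the start of Ces1g, and are all on the minus strand in the order Ces1b, Ces1c, Ces1d, Ces1e, Ces1f and Ces1g. Gaps between neighbours in this cluster ranged from 3.4 kb between Ces1d and Ces1e to 34.8 kb between Ces1c and Ces1d. The other 4 genes lie 11396.7 kb further on and are on the plus strand. Ces2a runs from 104734003 to 104741634, Ces2e from 104926260 to 104934672, Ces3a from 105048601 to 105058413 and Ces3b from 105083753 to 105093929. The main transcript of each gene has 12 to 14 exons. Coding sequences were 95.3% identical between Ces3a and Ces3b, 90.9% between Ces1b and Ces1c, 83.3% between Ces2a and Ces2e, and 81.5% between Ces1d and Ces1g. Between the subfamilies, for example between Ces1g and Ces3a, identity was 58.6%.

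Such likeness bears on how reads can be assigned, because a 75-base read that fits several genes is divided among them by the counting program RSEM. A stretch of exon 2 is shown first because it holds the longest runs that Ces1c shares with Ces1e and with Ces1g. It covers 95 bases on the minus strand, at chr8:93130726-93130820 in Ces1c, chr8:93223926-93224020 in Ces1e, chr8:93335051-93335145 in Ces1g and chr8:93079386-93079480 in Ces1b, and all of it is coding. Capitals mark bases that differ from Ces1c.
Ces1c: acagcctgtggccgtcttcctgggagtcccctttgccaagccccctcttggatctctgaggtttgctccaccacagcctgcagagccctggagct
Ces1e: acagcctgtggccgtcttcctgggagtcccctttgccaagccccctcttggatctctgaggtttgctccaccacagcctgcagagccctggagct
Ces1g: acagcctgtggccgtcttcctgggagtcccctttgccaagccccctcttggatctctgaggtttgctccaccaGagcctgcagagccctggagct
Ces1b: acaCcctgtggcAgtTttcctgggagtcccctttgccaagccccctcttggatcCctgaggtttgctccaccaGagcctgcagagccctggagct
Ces1e was identical to Ces1c over this stretch, Ces1g differed at 1 base and Ces1b at 5. The longest run shared by Ces1c and Ces1g was 73 bases and that shared by Ces1e and Ces1g was 74 bases, both just under the read length.

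Ces1b and Ces1c shared a longer run near the end of their coding sequences, 118 bases in the last exon of each, at chr8:93056906-93057023 in Ces1b and chr8:93099184-93099301 in Ces1c on the minus strand.
Ces1b and Ces1c: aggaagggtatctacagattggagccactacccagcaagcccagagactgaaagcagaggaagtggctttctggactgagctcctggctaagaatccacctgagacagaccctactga
The longest run shared by any members belonged to Ces3a and Ces3b. It was 194 bases across exons 4 and 5, at chr8:105050560-105051605 in Ces3a and chr8:105085634-105086695 in Ces3b on the plus strand, with the intron between them left out.
Ces3a and Ces3b: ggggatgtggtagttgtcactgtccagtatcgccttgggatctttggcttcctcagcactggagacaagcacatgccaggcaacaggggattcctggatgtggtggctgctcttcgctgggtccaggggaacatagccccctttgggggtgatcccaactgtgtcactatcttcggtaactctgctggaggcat
Only 75-base coding windows within 1 exon were compared for where these genes were least alike. The least alike was in exon 1, at chr8:105048630-105048704 in Ces3a and chr8:105083784-105083858 in Ces3b. Capitals mark the 14 bases at which Ces3b differs.
Ces3a: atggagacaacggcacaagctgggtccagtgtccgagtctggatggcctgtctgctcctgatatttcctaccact
Ces3b: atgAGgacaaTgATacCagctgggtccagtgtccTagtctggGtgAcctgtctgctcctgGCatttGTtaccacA
Of all 75-base windows of the transcripts, 18.3% of those of Ces3a also occurred in Ces3b and 15.4% of those of Ces3b also occurred in Ces3a. The share of windows held by another carboxylesterase was 6.04% for Ces1c, 4.50% for Ces1b, 1.05% for Ces1e and 0.343% for Ces2e, whose partner was the non-member Ces2g. It was 0 for Ces1d, Ces1f, Ces1g and Ces2a. Ces2a shared 14.8% of its windows with Gm7208, a gene of the annotation outside the named family, which was not analysed here.

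Each library held 8696712 to 10341622 expected counts in all, but 3 genes (Rn45s, Lars2 and Mir6236) took most of them and between 134911 and 315436 counts fell elsewhere, the smallest number in p62S351E/+ mouse 1. Genotypes were compared on normalized counts (expected counts scaled to library size by the TMM method) with edgeR's quasi-likelihood test over all 5945 genes. A gene was called where its Benjamini-Hochberg adjusted p was under 0.05 and its log2 fold change exceeded 1 in size. Of the genes tested, 50 were called higher in p62S351E/+ mice, a percentage of 0.841, and 5 were called lower, a percentage of 0.0841. Leaving out 1 mouse moved these counts to between 16 and 333 higher and between 1 and 975 lower, with the most of both without p62S351E/+ mouse 3. All 10 hepatocyte markers (such as Alb and Trf) were detected, and their summed normalized counts were 13713 to 14993 for p62+/+ and 20291, 32726 and 14592 for p62S351E/+ mice 1 to 3. Markers of brain were also present, with summed normalized counts of 1875 to 1959 in p62+/+ mice, and, within p62S351E/+, of 36.2 and 39.1 in mice 1 and 2 against 1802 in mouse 3. Sex-linked transcripts also differed between mice. Xist was at 56.8 normalized counts in p62+/+ mouse 1, at 1.90 and 0 in mice 1 and 2 of p62S351E/+, and between 925 and 1191 in the others, while Ddx3y of the Y chromosome was at 24.1 to 41.6 in the mice low in Xist and at 5.18 to 6.21 in the rest. Mice low and high in Xist were thus found in each genotype. The part of these differences in the results below was not tested beyond the values given beside them. In bulk liver, fewer cells of a type and less RNA per cell cannot be told apart.

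Of the 10 members, 3 were called higher in p62S351E/+ mice (Ces1g, Ces1b and Ces1d), against 0.841% of all genes tested, and 0 were called lower by edgeR, against 0.0841%. The called members were all of the Ces1 cluster. Without the adjustment, at p under 0.05, 6 members were higher (9.02% of all genes tested) and 2, Ces3a and Ces3b, were lower (5.55% of all genes). DESeq2 called the same 3 members higher and Ces3a lower, and limma-voom called those 3 and Ces1f higher and 0 lower. Over all genes, DESeq2 called 66 higher and 8 lower when run on the 16283 genes with any rounded count. Over the filtered genes, limma-voom called 131 of 5945 higher and 12 lower. Without any 1 of the p62+/+ mice, edgeR called Ces1g alone of the members, among 16 to 20 genes called higher. Without p62S351E/+ mouse 3, edgeR called 6 members higher, with Ces1e (adjusted p = 0.0391), Ces1f (0.00169) and Ces2e (0.00784) beside the 3. That fit called far more genes of every kind, 333 higher and 975 lower. Every p62S351E/+ mouse was above every p62+/+ mouse for 5 members (Ces1b, Ces1d, Ces1e, Ces1f and Ces1g), as was true of 12.0% of all genes tested. Every p62S351E/+ mouse was below every p62+/+ mouse for Ces3a and Ces3b, as was true of 14.7% of all genes. Some of these members reached the filter's level in more libraries of the genotype where they were higher. Ces3b reached it in 3 p62+/+ and 1 p62S351E/+ libraries, Ces3a in 3 and 2, and Ces1f in 1 and 3. The separation of these 3 genes, and their place in the counts at an unadjusted p under 0.05, are thus a description only. The median log2 fold change was 1.07 over the 10 members, 7 of which were above 0, and -0.03 over all genes tested.

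**Figure D1:**
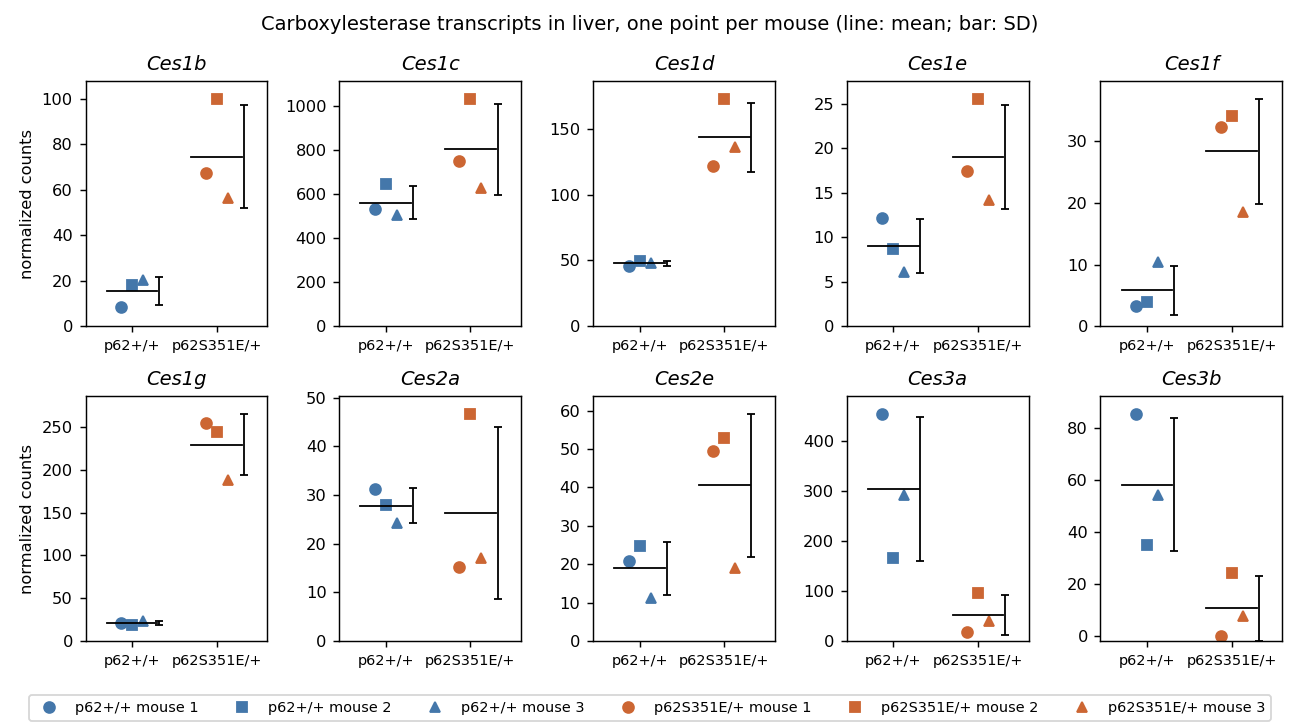
Normalized counts (linear axes, each starting at or just below 0) of the 10 members, 1 panel per gene and 1 point per mouse, with p62+/+ mice in blue and p62S351E/+ mice in orange, horizontal lines for means and bars for SD (n = 3 per genotype). Ces1g lies at 18.7 to 23.3 in p62+/+ livers and at 189 to 255 in p62S351E/+ livers, while Ces3a lies at 167 to 454 and at 19.04 to 96.7.

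Ces1g, which encodes a lipid-metabolising carboxylesterase of hepatocytes, had the largest rise of the members. Its normalized counts were 21.7, 18.7 and 23.3 in p62+/+ livers and 255, 244 and 189 in p62S351E/+ livers. The groups were far apart and each was narrow. Means were 21.2 ± 2.36 and 229 ± 35.8 normalized counts (SD, n = 3 each), a ratio of 10.8, and the log2 fold change was 3.43 ± 0.24 (SE, the standard error), with an edgeR quasi-likelihood adjusted p of 0.000456. Ces1g had no 75-base window in common with another gene, although its counts were not whole in 2 of the 6 libraries. Among the mice with little Xist, Ces1g was at 21.7 in the p62+/+ mouse and at 255 and 244 in the p62S351E/+ mice, and among the mice with high Xist it was at 18.7 and 23.3 against 189. With p62S351E/+ mouse 3, whose brain and hepatocyte marker sums were like those of p62+/+ mice, as the sole mouse of its genotype, the log2 fold change was 3.16, a value with no replicate check. Scaled by library size alone it was 2.71 (edgeR adjusted p = 0.0173).

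Ces1d encodes the enzyme also known as triacylglycerol hydrolase, which mobilises stored triacylglycerol in hepatocytes for the assembly of very low density lipoprotein. Its normalized counts were 45.7, 49.7 and 48.4 in p62+/+ livers and 122, 173 and 136 in p62S351E/+ livers, so that the lowest p62S351E/+ value was well above the highest p62+/+ value. Means were 47.9 ± 2.01 and 144 ± 26.1 (SD, n = 3 each). The log2 fold change was 1.58 ± 0.22 (SE), with an edgeR quasi-likelihood adjusted p of 0.0146. Ces1d counts were whole in all 6 libraries, and no 75-base window was shared with another gene. The call was lost without any 1 of the p62+/+ mice, with edgeR adjusted p of 0.115 without mouse 1, 0.110 without mouse 2 and 0.0941 without mouse 3, while the log2 fold change stayed between 1.55 and 1.62. The call was also lost when libraries were scaled by size alone, with a log2 fold change of 0.94 (edgeR adjusted p = 0.417).

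Ces1b, at the other end of the Ces1 cluster from Ces1g, had 8.62, 18.0 and 20.3 normalized counts in p62+/+ livers and 67.3, 99.7 and 56.5 in p62S351E/+ livers. Here too the groups did not overlap, but the p62+/+ values rested on 10.7 to 23.6 expected counts. Means were 15.7 ± 6.20 and 74.5 ± 22.5 (SD, n = 3 each). The log2 fold change was 2.22 ± 0.36 (SE), with an edgeR quasi-likelihood adjusted p of 0.0341. Counts of Ces1b were not whole in any library, and reads from the last-exon run shown above could be divided between it and Ces1c. The call was lost without any 1 of the 3 p62+/+ mice (edgeR adjusted p 0.115, 0.151 and 0.0809 without mice 1 to 3), and without p62S351E/+ mouse 1 (0.0891) or mouse 2 (0.0829). It was also lost with Xist (0.120) or the brain markers (0.106) as a covariate, and the log2 fold change in these fits lay between 1.83 and 2.47. Scaled by library size alone it was 1.53 (edgeR adjusted p = 0.417).

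Ces1f, described as a second triacylglycerol hydrolase, had few counts. Its normalized counts were 3.21, 3.88 and 10.4 in p62+/+ livers and 32.4, 34.0 and 18.6 in p62S351E/+ livers, without overlap. The log2 fold change was 2.26 ± 0.48 (SE) and did not pass the threshold (edgeR quasi-likelihood adjusted p = 0.0878). Its counts were whole in all 6 libraries, and 1 p62+/+ library and all 3 p62S351E/+ libraries reached the minimum level of the filter. Ces1e encodes egasyn, the protein that holds beta-glucuronidase in the endoplasmic reticulum. It had 12.2, 8.73 and 6.12 normalized counts in p62+/+ livers and 17.5, 25.5 and 14.2 in p62S351E/+ livers, which also did not overlap. Its log2 fold change of 1.06 ± 0.38 (SE) did not pass (edgeR adjusted p = 0.279), and its counts were not whole in any library.

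Ces1c, which encodes a secreted carboxylesterase of mouse plasma, was the most abundant member in both genotypes. It had 534, 648 and 505 normalized counts in p62+/+ livers and 751, 1033 and 629 in p62S351E/+ livers. The ranges overlapped, since p62S351E/+ mouse 3 was below p62+/+ mouse 2. Means were 562 ± 75.7 and 804 ± 207 (SD, n = 3 each), and the log2 fold change of 0.52 ± 0.25 (SE) did not pass the test (edgeR adjusted p = 0.377). Scaled by library size alone, most of which was Rn45s, Lars2 and Mir6236, it was -0.19. It was 0.50 with DESeq2 size factors, 0.49 with upper-quartile factors and 0.46 with those 3 genes left out. Its direction thus turned with that scaling and not with these others. Over the 6 libraries, the genes outside the family whose log2 normalized counts were most like those of Ces1c were Gstz1, Prpsap1 and Tmem64 (Pearson r of 0.994, 0.991 and 0.989, a description over 6 libraries that share their scaling).

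**Figure D2:**
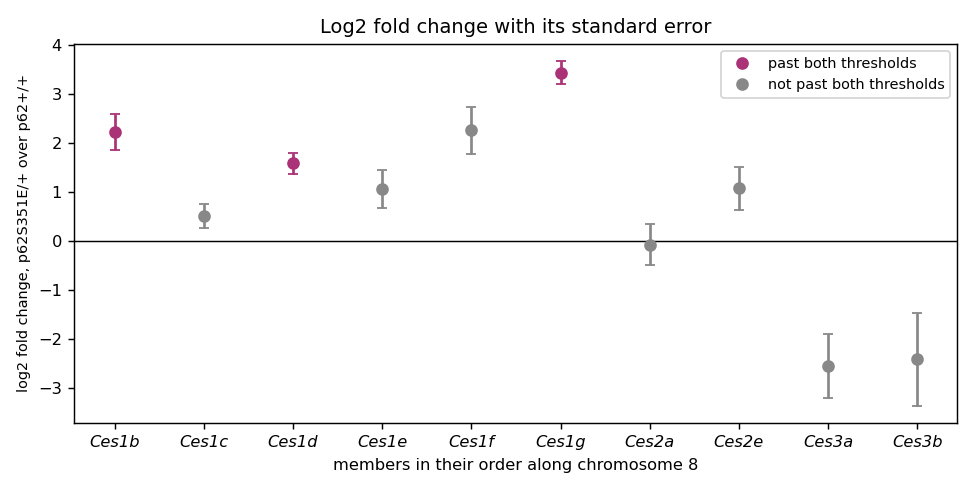
Log2 fold change of each member (p62S351E/+ over p62+/+, vertical axis) with its standard error as bars, in chromosomal order from Ces1b to Ces3b, with called members in purple. The 6 Ces1 values lie from 0.52 to 3.43, and those of Ces3a and Ces3b lie at -2.54 and -2.41.

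The Ces2 enzymes favour substrates with a small acyl group and also act on acylglycerols. Ces2a had 31.3, 27.9 and 24.2 normalized counts in p62+/+ livers and 15.2, 46.6 and 17.0 in p62S351E/+ livers, with mouse 2 above and mice 1 and 3 below all p62+/+ values. Its log2 fold change was -0.08 ± 0.42 (SE), with an edgeR adjusted p of 0.941. The deposited value in p62S351E/+ mouse 1 was 8 counts, so the depth there is low. Ces2e had 20.9, 24.8 and 11.2 normalized counts in p62+/+ livers and 49.5, 52.9 and 19.1 in p62S351E/+ livers. Mice 1 and 2 of p62S351E/+ were above all p62+/+ mice and mouse 3 was within their range. The log2 fold change of 1.07 ± 0.43 (SE) did not pass (edgeR adjusted p = 0.318), and with p62S351E/+ mouse 3 as the sole mouse of its genotype it was 0.03.

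Ces3a was the second most abundant member in p62+/+ mice and the Ces3 genes were the ones with the lowest fold changes. Ces3a had 454, 167 and 293 normalized counts in p62+/+ livers and 19.04, 96.7 and 39.3 in p62S351E/+ livers. All 3 p62S351E/+ values were below all 3 p62+/+ values, and both groups spread widely. Means were 304 ± 144 and 51.7 ± 40.3 (SD, n = 3 each). The log2 fold change of -2.54 ± 0.65 (SE) did not pass edgeR's quasi-likelihood test after adjustment (adjusted p = 0.191, unadjusted p = 0.00767), and DESeq2 gave -2.57 with an adjusted p of 0.00373. The call for Ces3a therefore depended on the tool.

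Ces3b had 85.5, 34.9 and 54.4 normalized counts in p62+/+ livers and 0, 24.3 and 7.92 in p62S351E/+ livers. The count of 0 was in p62S351E/+ mouse 1, where a floor of 3 counts corresponds to 5.71 normalized counts. Means were 58.3 ± 25.5 and 10.7 ± 12.4 (SD, n = 3 each), and the log2 fold change of -2.41 ± 0.94 (SE) did not pass (edgeR adjusted p = 0.334). Reads were divided between Ces3a and Ces3b, whose counts were each not whole in 5 of the 6 libraries, yet their sum was whole in all 6, at 672, 260 and 402 counts in p62+/+ livers and 10, 96 and 61 in p62S351E/+ livers. The separation of the genotypes was thus seen in the pair as a whole, whatever the division within it. Ces3b took 15.9%, 17.3% and 15.7% of the pair in p62+/+ livers and 0%, 20.1% and 16.8% in p62S351E/+ livers. Among mice with little Xist, the summed normalized counts of the pair were 539 in the p62+/+ mouse and 19.04 and 121 in p62S351E/+ mice, and among those with high Xist they were 202 and 347 against 47.3.

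In total, 7 of the 10 members had counts that were not whole (by more than 0.005) in at least 1 library. Values that were not whole occurred for Ces1b, Ces1c and Ces1e in all 6 libraries, for Ces3a and Ces3b in 5, for Ces2e in 3 and for Ces1g in 2, and Ces1d, Ces1f and Ces2a were whole throughout. Ces1b, Ces1c and Ces1e summed to a whole number (within 0.025) in 4 libraries, and with Ces1g added the sum was whole in all 6. Ces2e became whole in all 6 when summed with the non-members Ces2g, Ces2c and Ces2d-ps. These sets were chosen after the values were seen.

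Summed over a subfamily, values no longer depend on how reads were divided among its members. The Ces1 members summed to 625, 747 and 613 normalized counts in p62+/+ livers and 1245, 1609 and 1043 in p62S351E/+ livers, means of 662 ± 73.9 and 1299 ± 287 (SD, n = 3 each) without overlap and a log2 ratio of means of 0.97. The Ces2 members summed to 46.8 ± 9.84 and 66.8 ± 31.7, with overlap. Their expected counts did not sum to whole numbers in p62+/+ mouse 2 (67.91) or in p62S351E/+ mice 1 and 3 (33.99 and 46.71). The Ces2 sum therefore still depended on reads divided with genes outside it. The Ces3 members summed to 363 ± 169 and 62.4 ± 52.6, again without overlap, a log2 ratio of -2.54. Leaving out 1 mouse moved that ratio to between -3.44, without p62S351E/+ mouse 2, and -2.10, without p62S351E/+ mouse 1. Scaled by library size alone, the log2 ratio of the Ces1 sum was 0.27, that of the Ces2 sum turned to -0.27 and that of the Ces3 sum was -3.17.

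Shares of each gene in the summed counts of the 10 members do not depend on scaling between libraries. In p62+/+ mice Ces1c held 53.1 ± 10.6% and Ces3a 27.8 ± 10.4% (SD, n = 3), and each of the others held under 6% on average. In p62S351E/+ mice Ces1c held 56.3 ± 0.386%, Ces1g was next with 16.4 ± 2.93% and Ces1d followed with 10.2 ± 1.63%. Ces1g had held 1.78% to 2.34% in p62+/+ livers and held 13.4% to 19.2% in p62S351E/+ livers. The share of Ces3a was 16.7% to 37.3% in p62+/+ livers and 1.43% to 5.29% in p62S351E/+ livers. Ces1b went from 1.52 ± 0.710% to 5.18 ± 0.238%. The share of the most abundant member was thus within the p62+/+ range while the gene in the next place was a different one.

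**Figure D3:**
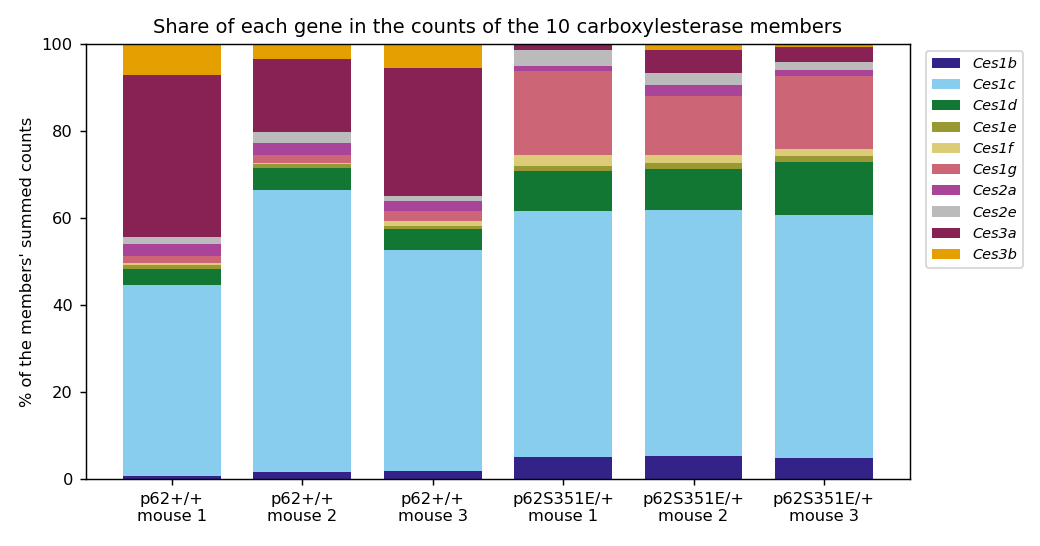
Share of each member in the summed expected counts of the 10 members (vertical axis, percent), 1 stacked bar per mouse, colours by gene. Ces3a with Ces3b fills the upper part of the 3 p62+/+ bars, whereas Ces1g holds 13.4% to 19.2% of the 3 p62S351E/+ bars.

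Levels of different genes were compared per kilobase of transcript. In p62+/+ mice the order of mean normalized counts per kilobase was Ces1c at 307, Ces3a at 149, Ces3b at 24.3, Ces1d at 23.9, Ces2a at 14.2, Ces1g at 8.88, Ces1b at 7.97, Ces2e at 7.02, Ces1e at 4.35 and Ces1f at 3.02. Ces3b and Ces1d differed by less than the spread between mice (SD 10.6 and 1.001), as did Ces1g and Ces1b (SD 0.989 and 3.16). The same held for Ces1b and Ces2e (SD 3.16 and 2.58) and for Ces1e and Ces1f (SD 1.47 and 2.05). In p62S351E/+ mice the mean level per kilobase was 440 for Ces1c, 96.1 for Ces1g, 71.7 for Ces1d, 37.9 for Ces1b and 25.3 for Ces3a, with Ces2e at 15.01, Ces1f at 14.7, Ces2a at 13.4, Ces1e at 9.20 and Ces3b at 4.47. Ces2e, Ces1f and Ces2a were within 1 SD of each other there (6.89, 4.40 and 8.99). From Ces1b down, each gene differed from the next by less than the larger of their SDs. These were 11.4 for Ces1b, 19.7 for Ces3a, 2.82 for Ces1e and 5.15 for Ces3b, so the order of neighbours there was not resolved.

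Neighbouring paralogs were then compared within each mouse, as the log2 ratio of normalized counts plus 1 of each member to the one before it along the chromosome. For 9 neighbouring pairs, the ratios of the genotypes did not overlap in 6, as was true in either direction of 26.8% of all 5749 pairs of tested genes next to each other in the annotation. Only 7 of the 9 are such pairs. Ces2a over Ces1g and Ces3a over Ces2e have other tested genes between them, and both are among the 6, so the count and the share are not fully alike. The member pairs share genes, so the 6 are not independent of each other. Ces1f reached the filter's level in 1 p62+/+ and 3 p62S351E/+ libraries, with only 4, 5 and 12 counts in p62+/+ mice. Ces3a reached it in 3 and 2. The separation of Ces1g over Ces1f and of Ces3a over Ces2e is therefore a description only. The exact two-sided permutation p of each of these 6 was 0.1, the smallest that 3 mice against 3 can give. None can therefore pass 0.05, before or after adjustment over the 9 pairs. Ces1c over Ces1b was 5.80, 5.09 and 4.57 in p62+/+ livers and 3.46, 3.36 and 3.45 in p62S351E/+ livers. The ratio was lower in each p62S351E/+ mouse, by 1.73 between the means, so that Ces1b was less far below its abundant neighbour. Ces1d over Ces1c was 1.06 higher in p62S351E/+ mice (means -3.52 and -2.46), and Ces1g over Ces1f was 1.16 higher (means 1.85 and 3.01). Ces1e over Ces1d and Ces1f over Ces1e overlapped between the genotypes, with differences of -0.54 and 1.20.

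On the other side of the gap, Ces2e over Ces2a was 1.25 higher in p62S351E/+ mice (means -0.59 and 0.66), without overlap. Ces3a over Ces2e had the largest difference of pairs within this cluster, -3.71, from 4.38, 2.70 and 4.59 in p62+/+ mice to -1.33, 0.86 and 1.002 in p62S351E/+ mice. Ces3b over Ces3a overlapped, with a difference of -0.48 that turned to 0.28 without p62S351E/+ mouse 1, the library with 0 counts of Ces3b. Ces2a over Ces1g spanned the 11396.7 kb gap and differed by -3.62.

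**Figure D4:**
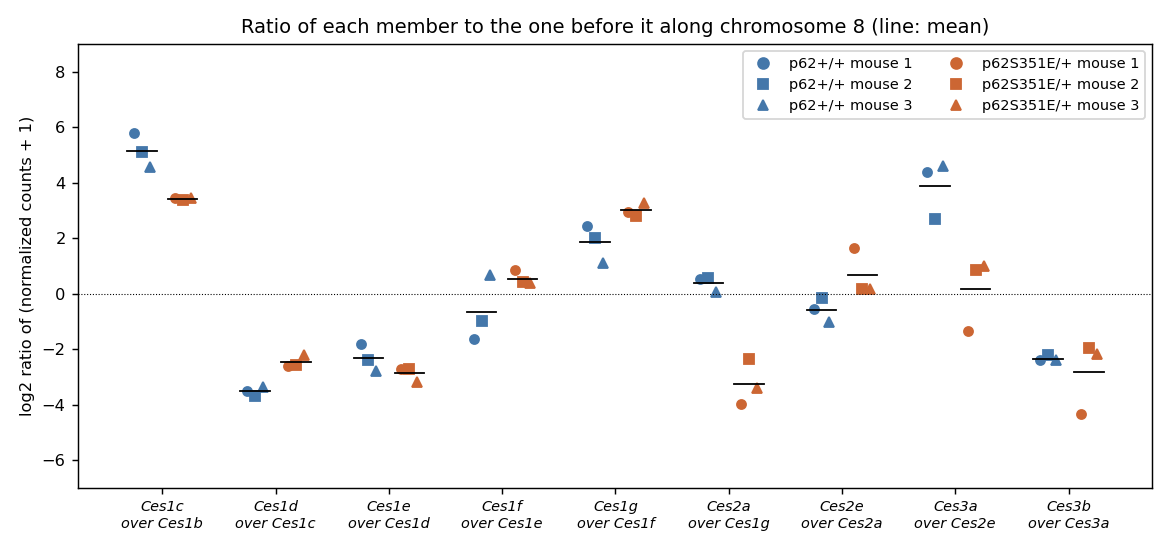
Log2 ratio of (normalized counts + 1) of each member to the member before it along chromosome 8 (vertical axis), 1 point per mouse with p62+/+ in blue and p62S351E/+ in orange, and lines for means. Ces3a over Ces2e separates from a mean of 3.89 to a mean of 0.18, and Ces3b over Ces3a has means of -2.34 and -2.82.

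Promoters of 7 members were taken from RefSeq (GRCm38.p6), from 250 bases before to 50 bases after each start, and those of Ces1d, Ces1f and Ces3a were not analysed here. Another promoter of Ces1b, at chr8:93079891-93080190, was also searched, held none of the motifs and is not shown. Promoters of the called members Ces1b and Ces1g are shown, at chr8:93079968-93080267 and chr8:93337160-93337459 on the minus strand. They have no capitals because no motif was found in them.
Ces1b: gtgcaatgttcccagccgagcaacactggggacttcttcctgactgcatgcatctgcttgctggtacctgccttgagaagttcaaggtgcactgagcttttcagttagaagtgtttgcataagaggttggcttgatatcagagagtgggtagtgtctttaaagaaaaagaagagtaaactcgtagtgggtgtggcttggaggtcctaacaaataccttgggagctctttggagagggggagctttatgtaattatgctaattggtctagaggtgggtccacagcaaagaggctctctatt
Ces1g: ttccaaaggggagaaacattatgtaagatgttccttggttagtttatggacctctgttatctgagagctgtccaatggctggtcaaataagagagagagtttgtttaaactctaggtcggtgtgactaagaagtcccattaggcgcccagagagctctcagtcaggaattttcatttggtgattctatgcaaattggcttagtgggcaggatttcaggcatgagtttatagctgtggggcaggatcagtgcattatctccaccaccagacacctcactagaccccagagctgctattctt
TGACNNNGC, the core of the antioxidant response element bound by NRF2, was searched on both strands and was in 0 of the 7 members with a promoter, against 12.4% of all 32851 promoters. AGGTCA, a nuclear receptor half-site, was in 1 member, Ces2a, against 16.3% of all promoters. Pairs of that half-site in the same direction with 1 or 4 bases between them were in 0 members, and in 0.0396% and 0.0152% of all promoters. Absence says only that these letters are not in this window.

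Other genes of the family were scarce. Of 9 further carboxylesterase genes, Ces2g alone passed the filter, with a log2 fold change of 0.62 (edgeR adjusted p = 0.478). Ces2c, below the filter, had 1, 3.13 and 0 expected counts in p62+/+ livers and 3.49, 21 and 13 in p62S351E/+ livers, and Ces1a, Ces2f and Ces5a had 0 in all 6. Among other esterases and drug hydrolases, 1 of 14 tested genes was called higher and 0 lower by edgeR. At an unadjusted p under 0.05 in edgeR, 4 were higher and 0 lower. DESeq2, run without the filter, called 0 of 17. For this list and those that follow, the edgeR shares over all genes tested were 0.841% called higher and 0.0841% called lower. At an unadjusted p under 0.05 they were 9.02% higher and 5.55% lower. Over all genes, DESeq2 called 66 of 16283 higher and 8 lower, and limma-voom 131 of 5945 higher and 12 lower. The called gene was Esd, encoding esterase D, an S-formylglutathione hydrolase, which had 12.8, 16.3 and 12.1 normalized counts in p62+/+ livers and 43.8, 42.8 and 31.0 in p62S351E/+ livers (log2 fold change 1.496, edgeR adjusted p = 0.0484). Pon1, Aadac and Bche, the most abundant of that list, had log2 fold changes of 0.38, 0.00 and 0.998 and were not called.

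Genes of neutral lipid hydrolysis and of lipid droplet and lipoprotein assembly were described in the same way. Of 9 tested genes (15 in DESeq2) of neutral lipid hydrolysis, 0 were called in either direction by edgeR, DESeq2 or limma-voom. At an unadjusted p under 0.05 in edgeR, 2 were higher and 1 lower. Lpl, Aadac and Lipa, the most abundant of them, had log2 fold changes of 0.91, 0.00 and 0.28. Of 9 tested genes (14 in DESeq2) of lipid droplet and very low density lipoprotein assembly, 0 were called by edgeR or DESeq2. At an unadjusted p under 0.05 in edgeR, 2 were higher and 0 lower, and limma-voom called Apob after adjustment. Apob, the structural protein of that lipoprotein, had normalized counts of 1312 ± 149 and 2812 ± 809 (SD, n = 3 each) and an edgeR adjusted p of 0.121 at a log2 fold change of 1.0995, and Dgat2 and Mttp had log2 fold changes of 0.25 and 0.65.

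Of 11 tested regulators (12 in DESeq2) reported for carboxylesterase genes, 0 were called by edgeR or DESeq2. At an unadjusted p under 0.05 in edgeR, 2 were higher and 0 lower, and limma-voom called Nr1i3 after adjustment. Nr1i3 encodes the nuclear receptor CAR, which controls drug metabolism genes in hepatocytes. It had 16.3, 49.9 and 50.9 normalized counts in p62+/+ livers and 136, 118 and 109 in p62S351E/+ livers, without overlap (log2 fold change 1.63, edgeR adjusted p = 0.131). Hnf4a and Ppara, the other abundant regulators, had log2 fold changes of 0.73 and 0.33. Median log2 fold changes were 0.20 for neutral lipid hydrolysis, 0.54 for lipid droplet and lipoprotein assembly, 0.33 for the other esterases and 0.21 for the regulators, beside 1.07 for the carboxylesterase members and 0.50 for the hepatocyte markers.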

How the data were processed

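Liver RNA of 3 p62+/+ and 3 p62S351E/+ mice was sequenced after depletion of ribosomal RNA. Per the study's methods and the submitters' processing notes, reads were trimmed with Trim Galore, mapped to mm10 with STAR and counted with RSEM. Versions, the annotation and strandedness are not given in the sources used here. The authors deposited RSEM expected counts per gene symbol, not normalized and not always whole, because a read that fits several genes is divided among them. Genotypes and replicate numbers were taken from the labels.

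Expected counts were rounded for testing with edgeR 4.0.16 in R 4.3.3 (filterByExpr with a minimum count of 10, TMM, robust quasi-likelihood fit, Benjamini-Hochberg over 5945 genes, two-sided). DESeq2 1.42.0 and limma 3.58.1 were alternatives, with other scalings, filters, covariates and each mouse left out. Standard errors are the absolute log2 fold change over the square root of F. Whether samples share a litter is not stated. p-values measure the spread between these mice. Total counts were 8696712 to 10341622, but the 134911 to 315436 outside Rn45s, Lars2 and Mir6236 leave few counts per gene. Counting error does not cover differences between mice. The fit was tested on simulated counts. Members and lists were chosen with earlier results of these data known. Named genes were the 10 members, other carboxylesterases, called genes of 4 lists with the 3 most abundant of each, and the 3 genes most like the most abundant member. Marker sums were also near 0 for kidney (0 counts in all 6 libraries), lung, white fat and exocrine pancreas (at most 4 counts each), while small intestine had 7 to 38 counts, and the 6 macrophage markers had 58 to 115. Same-numbered mice are different animals, and their deviations did not correlate (r of 0.07, -0.09 and 0.00).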

Additional observations from a re-analysis of the deposited data

How the results depend on the processing

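Among the members, the rise of Ces1g kept its call in all 20 alternatives (log2 fold change 2.71 to 3.55). The call of Ces1d was lost in 5 of 20 and that of Ces1b in 10 of 20, with their direction kept. Ces3a stayed between -3.33 and -2.13 and Ces3b between -3.58 and -1.91. Members called higher numbered 1 with library size alone and 1 with the replicate block, in both cases Ces1g, and 1 to 6 without each mouse. The 1 was Ces1g, without any p62+/+ mouse, and the 6, without p62S351E/+ mouse 3, added Ces1e, Ces1f and Ces2e. DESeq2 called 1 member lower. Over all genes, limma-voom called 131 higher and 12 lower, DESeq2 8 lower and the legacy method 8 lower. Library size alone gave 12 and 2, no filter 79 and 10, and a minimum of 10 counts in every library 29 lower. The Xist covariate gave 27 and 2, the brain-marker covariate 29 and 2, and the Y-linked covariate 27 and 2. p62S351E/+ mouse 3 alone gave 23 lower. The last 2 were chosen after seeing the data. Leaving out each mouse gave 16 to 333 higher and 1 to 975 lower, the most without p62S351E/+ mouse 3, and the cause was not tested. With library size alone, Ces1c reversed to -0.19, the Ces2 sum reversed to -0.27 and the Ces1 sum fell to 0.27. Ces2a lay between -0.77 and 0.18 with each mouse left out, and Ces3b over Ces3a between -0.91 and 0.28. Mice with the same replicate number were not paired (r of 0.07, -0.09 and 0.00), and the replicate block gave 18 higher and 1 lower, with adjusted p of 0.101 for Ces1b and 0.0891 for Ces1d. Depth limits Ces1e, Ces1f, Ces2a, Ces3a and Ces3b, which reached the filter's level in only some libraries.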
